A study of Mus musculus with 4 samples.

Results

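Mitotic spindle and kinetochore genes were followed in single mouse CD8+ T cells kept with sodium butyrate or with PBS. The 42 genes were taken by symbol from a list of mitotic kinases, cyclins, spindle, kinetochore, checkpoint and cytokinesis genes, a list drawn up with earlier results of these data known, and all 42 stood among the 32285 genes of the count matrices. All 42 also passed the filter on low counts when cells were summed by library, as did 13487 genes in all. The cells came from spleens of gBT-I.CD45.1 tg mice, whose CD8+ T cells carry a transgenic receptor for a herpes simplex virus glycoprotein B peptide.

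The butyrate cultures received 0.5 mM sodium butyrate from day 3 to day 5, and the PBS cultures received PBS over the same days. Both groups had first been activated with B6 splenocytes loaded with that peptide and with LPS, and both grew in recombinant human IL-2. On day 6, a day after treatment ended, live CD8+Vα2+ cells were purified by flow sorting and loaded for 10x 3′ v3.1 libraries. Each group held 2 libraries, replicates 1 and 2, from 2 mice of unstated age, each of which gave 1 culture per treatment, and all were labelled batch 1. The activating peptide was therefore the same in every culture, and p-values rest on 2 animals. Whether each cell carried the transgenic receptor alone and met the peptide was not tested.

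Library totals were 76522004 and 74844548 UMIs (counted RNA molecules) with butyrate and 64388093 and 74891790 UMIs with PBS, and 2560 and 2664 cells were kept with butyrate and 2059 and 2632 with PBS. The median kept cell held 24816 and 23627.5 UMIs in butyrate cultures and 21793 and 20494 UMIs in PBS cultures. Its mitochondrial share was 3.93% and 4.13% with butyrate and 4.89% and 4.91% with PBS. The 8 CD8 T cell markers summed to 2808 and 3106 CPM (counts scaled to a common library total) with butyrate and 3510 and 3607 CPM with PBS, none of them at 0. Myeloid markers summed to 12.3 and 13.7 CPM with butyrate against 1.99 and 2.57 CPM with PBS, and B cell markers to 44.8 and 45.1 CPM with butyrate against 145 and 149 CPM with PBS. CD4 or regulatory T cell markers summed to 67.4 and 66.1 CPM with butyrate against 14.4 and 11.8 CPM with PBS, and NK cell markers to 44.7 and 53.7 CPM with butyrate against 8.94 and 10.7 CPM with PBS. Dendritic cell markers (6.66 and 7.57 CPM with butyrate, 1.35 and 2.15 CPM with PBS) and erythroid or platelet markers (0.739 and 0.569 CPM with butyrate, 0.137 and 0.257 CPM with PBS) were scarce. Of the defining markers, C1qa and C1qb were at 0 in all 4 libraries, and Ncr1 in both butyrate libraries. Some others were present and higher with butyrate, while Ighm and Cd40lg, given below, were lower. Itgam of the myeloid list had 3.505 and 3.996 CPM with butyrate and 0.156 and 0.337 CPM with PBS. H2-Eb1 of the dendritic list had 1.61 and 1.82 CPM with butyrate and 0.0978 and 0.0641 CPM with PBS. Klrb1c of the NK list had 13.2 and 16.1 CPM with butyrate and 5.71 and 8.37 CPM with PBS. Single genes carried most of several sums. Tnfrsf4, which activated T cells also express, made up 66.6 and 65.1 CPM with butyrate and 13.3 and 11.3 CPM with PBS of the CD4 or regulatory T cell sum, and Tyrobp 31.6 and 37.6 CPM with butyrate and 3.19 and 2.32 CPM with PBS of the NK cell sum. Ighm made up 37.3 and 36.7 CPM with butyrate and 138 and 143 CPM with PBS of the B cell sum, and Cd68 8.78 and 9.63 CPM with butyrate and 1.82 and 2.23 CPM with PBS of the myeloid sum. Cd4 had 0.478 and 0.583 CPM with butyrate and 0.0587 and 0.0160 CPM with PBS, and Cd40lg had 0.246 and 0.292 CPM with butyrate and 0.978 and 0.513 CPM with PBS. The part of these markers in the results was not tested.

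In mitosis, the kinase CDK1 with its cyclins drives entry, and the spindle, a bipolar array of microtubules, pulls sister chromatids apart. Kinetochores tie microtubules to centromeres, and the spindle checkpoint holds back the anaphase-promoting complex (APC/C) until every chromosome is attached. Most of these genes are transcribed in G2 and M phase and little in resting T cells, which divide rapidly after activation. Butyrate is a short-chain fatty acid that inhibits histone deacetylases.

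Transcripts of most of the 42 genes were scarcer in the butyrate cultures. In sums over all kept cells 37 of 42 fell, 1 rose (Birc5) and 4 did not pass the test (Cdk1, Aurkb, Bub3 and Top2a), by edgeR's quasi-likelihood test with Benjamini-Hochberg adjustment over 13487 genes and a threshold of 0.05. Among all genes tested, 35.7% fell and 36.0% rose, 71.8% in either direction, so a change was common. The median log2 fold change of butyrate over PBS was -0.67 over the 42 genes and -0.01 over all genes. All folds and CPM in sums of cells are on the scale of trimmed-mean (TMM) normalised libraries unless stated. Scaling by library totals alone placed the median of all genes at -0.21, and 41 of the 42 genes then fell. In these sums, fewer mitotic cells and less RNA per mitotic cell cannot be told apart.

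**Figure D1:**
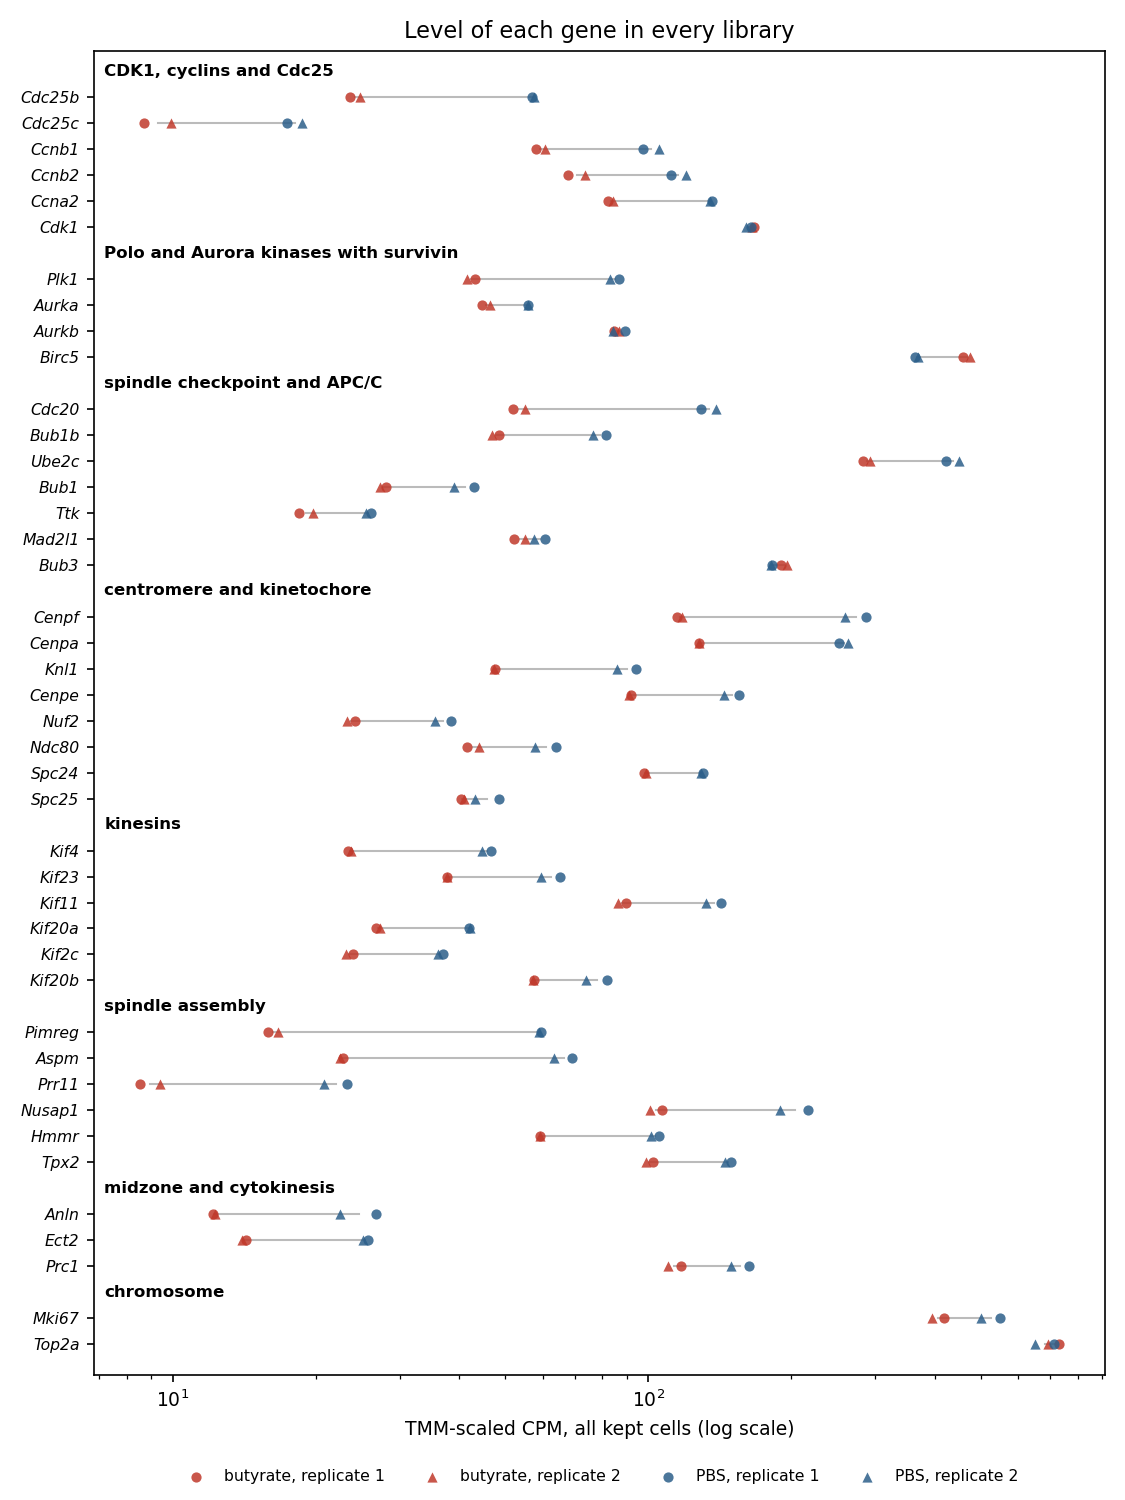
TMM-normalised level (CPM, log axis) of each of the 42 genes in the 4 libraries, summed over all kept cells, ordered by function and, within a function, by fold change. Red symbols are butyrate and blue symbols PBS, circles replicate 1 and triangles replicate 2, and grey lines join the group means. Both red symbols lie left of both blue ones for the 37 genes that fell, while Birc5 has 460 and 476 CPM with butyrate against 364 and 369 CPM with PBS.

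The sizes ran from Pimreg, which encodes a mitotic regulator that interacts with the clathrin assembly protein PICALM, to Mad2l1, the checkpoint protein Mad2. Pimreg had 15.8 and 16.6 CPM in butyrate cultures, against 59.4 and 58.8 CPM in PBS cultures, 3.64-fold lower (log2 fold change -1.86, SE 0.051, adjusted p = 3.15e-13). Mad2l1 had 52.1 and 55.1 CPM in butyrate cultures, against 60.7 and 57.4 CPM in PBS cultures (log2 fold change -0.14, SE 0.049, adjusted p = 0.0186). The groups stood far apart for Pimreg, whereas for Mad2l1 the higher butyrate library came close to the lower PBS library. Of 11 alternatives, 5 ended the call of Mad2l1 and 4 that of Spc25. Both calls were lost when butyrate replicate 1 was left out (log2 fold change -0.10 and -0.16) and when PBS replicate 1 was left out (-0.11 and -0.10). Both were also lost with DESeq2 (adjusted p = 0.0981 for Mad2l1 and 0.0617 for Spc25) and with a mitochondrial limit of 5% (-0.089 and -0.077), and Mad2l1 with thinned UMIs (-0.14).

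Promoters are shown for 3 genes that fell more than 2-fold (Cdc20, Cenpa and Aspm) and 3 that did not fall (Cdk1, Birc5 and Top2a), since cell cycle promoters of this kind share short elements. These are the cell cycle genes homology region, bound by the DREAM and MuvB complexes (TTTGAA, or the palindrome TTCGAA), and the CCAAT box, bound by NF-Y. Each line gives the 250 bases before the start of the gene as RefSeq for GRCm38.p6 places it, 5′ to 3′ on its own strand. GENCODE, the source of the gene coordinates given here, places some starts elsewhere, so that the windows of Cdc20, Cenpa and Cdk1 reach into the GENCODE gene. The Aspm window ends on the first base of its GENCODE gene. Capitals mark matches on either strand, so that TTCAAA is a reverse TTTGAA and ATTGG a reverse CCAAT. The regions are chr4:118437344-118437593, minus strand for Cdc20, chr5:30666636-30666885, plus strand for Cenpa, chr1:139454523-139454772, plus strand for Aspm, chr10:69352913-69353162, minus strand for Cdk1, chr11:117848987-117849236, plus strand for Birc5, and chr11:99024190-99024439, minus strand for Top2a.
Cdc20: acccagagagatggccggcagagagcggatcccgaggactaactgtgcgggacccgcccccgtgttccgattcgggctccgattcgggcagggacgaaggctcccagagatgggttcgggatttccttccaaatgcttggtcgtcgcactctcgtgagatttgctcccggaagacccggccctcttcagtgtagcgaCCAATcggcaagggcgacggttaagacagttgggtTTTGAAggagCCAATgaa
Cenpa: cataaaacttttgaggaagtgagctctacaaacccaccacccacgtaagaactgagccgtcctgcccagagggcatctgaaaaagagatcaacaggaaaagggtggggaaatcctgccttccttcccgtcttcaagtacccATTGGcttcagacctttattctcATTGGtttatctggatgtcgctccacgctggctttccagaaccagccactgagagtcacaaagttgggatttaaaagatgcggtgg
Aspm: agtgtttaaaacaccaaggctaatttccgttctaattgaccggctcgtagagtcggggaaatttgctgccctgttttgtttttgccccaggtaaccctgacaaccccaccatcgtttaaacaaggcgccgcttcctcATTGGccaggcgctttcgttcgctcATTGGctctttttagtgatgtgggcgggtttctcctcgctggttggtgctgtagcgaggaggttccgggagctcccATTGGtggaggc
Cdk1: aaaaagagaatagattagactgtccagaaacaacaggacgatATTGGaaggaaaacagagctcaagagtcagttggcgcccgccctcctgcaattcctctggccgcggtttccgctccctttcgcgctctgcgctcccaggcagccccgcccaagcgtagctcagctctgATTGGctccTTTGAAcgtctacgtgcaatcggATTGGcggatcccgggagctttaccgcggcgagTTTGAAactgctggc
Birc5: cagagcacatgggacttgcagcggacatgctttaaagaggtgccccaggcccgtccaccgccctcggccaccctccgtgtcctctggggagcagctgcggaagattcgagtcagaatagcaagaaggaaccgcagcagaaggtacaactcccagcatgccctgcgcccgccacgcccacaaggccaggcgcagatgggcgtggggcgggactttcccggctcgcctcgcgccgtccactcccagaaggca
Top2a: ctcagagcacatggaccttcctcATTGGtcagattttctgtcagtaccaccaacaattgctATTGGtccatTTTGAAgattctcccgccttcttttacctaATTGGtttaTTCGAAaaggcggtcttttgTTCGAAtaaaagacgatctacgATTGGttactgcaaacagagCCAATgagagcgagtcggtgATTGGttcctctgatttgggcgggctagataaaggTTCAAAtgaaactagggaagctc

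Both elements were present on both sides of the split. Cdc20 held a TTTGAA 18 to 13 bases before its start with CCAAT boxes 53 to 49 and 8 to 4 bases before it, and Cdk1, which did not fall, held TTTGAA at 71 to 66 and 15 to 10 bases with 3 CCAAT boxes. Top2a held 2 TTTGAA, 2 TTCGAA and 6 CCAAT matches, and the Birc5 window held none of them. Of the 42 genes, 35 had a promoter in the table, and 26 of these held a CCAAT, against 37.5% of 27025 genes with a window of the same length. A TTTGAA or TTCGAA stood in 12 of the 35, against 19.6% of all genes, and 11 of the 35 held it together with a CCAAT, against 7.001% of all genes. Of the genes that fell, 9 of 31 held a TTTGAA or TTCGAA and 23 of 31 a CCAAT, and of those that did not fall 3 of 4 held each. Bub3, Ect2 and Prc1 had 2 overlapping windows each, which made 38 windows for the 35 genes. No match of one motif overlapped a match of another among 87 matches, with a site in both windows of a gene counted in each.

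Among CDK1, its cyclins and the Cdc25 phosphatases, the kinase itself did not pass the test while its 5 partners fell. Cdk1 (chromosome 10, 69335146 to 69352938 on GRCm38) had 167 and 165 CPM in butyrate cultures, against 165 and 160.3 CPM in PBS cultures (log2 fold change 0.03, SE 0.041, adjusted p = 0.510), so the 4 libraries spanned a narrow range. Ccnb1, the B-type cyclin that activates CDK1 for mitotic entry, had 58.1 and 60.5 CPM in butyrate cultures, against 97.4 and 105 CPM in PBS cultures (log2 fold change -0.78, SE 0.048, adjusted p = 1.77e-09). Its paralogue Ccnb2 had 67.8 and 73.5 CPM in butyrate cultures, against 111 and 119.9 CPM in PBS cultures (log2 fold change -0.71, SE 0.051, adjusted p = 1.41e-08). In neither cyclin did the groups overlap. Ccna2, the A-type cyclin of S and G2 phase, had 82.2 and 84.5 CPM in butyrate cultures, against 136 and 135 CPM in PBS cultures (log2 fold change -0.70, SE 0.041, adjusted p = 9.90e-10). Cdc25b, whose product removes the inhibitory phosphates from CDK1, had 23.6 and 24.7 CPM in butyrate cultures, against 56.8 and 57.6 CPM in PBS cultures (log2 fold change -1.24, SE 0.049, adjusted p = 1.46e-11). Cdc25c, a phosphatase with the same target, was sparse, with 8.69 and 9.92 CPM in butyrate cultures, against 17.4 and 18.7 CPM in PBS cultures (log2 fold change -0.96, SE 0.073, adjusted p = 2.07e-08). The median over the 6 genes was -0.74.

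The Polo and Aurora kinases divided. Plk1 (Polo-like kinase, needed for centrosome maturation and entry into mitosis) had 43.2 and 41.5 CPM in butyrate cultures, against 86.7 and 83.2 CPM in PBS cultures, 2.00-fold lower (log2 fold change -1.003, SE 0.046, adjusted p = 6.96e-11). Aurka, the centrosomal Aurora kinase, had 44.8 and 46.5 CPM in butyrate cultures, against 55.9 and 55.8 CPM in PBS cultures (log2 fold change -0.29, SE 0.046, adjusted p = 3.99e-05). Both fell, Aurka by less. Aurkb, the kinase of the chromosomal passenger complex, had 84.7 and 86.6 CPM in butyrate cultures, against 89.3 and 84.3 CPM in PBS cultures, which overlapped (log2 fold change -0.02, SE 0.044, adjusted p = 0.715). Birc5 (chromosome 11, 117849251 to 117855743) encodes survivin, which brings that complex to centromeres, and had 459.8 and 476 CPM in butyrate cultures, against 364 and 369 CPM in PBS cultures, 1.28-fold higher (log2 fold change 0.35, SE 0.043, adjusted p = 2.68e-06). It was the only one of the 42 genes that rose, and it also rose under every alternative run on these sums. Incenp, Cdca8, Haspin and both shugoshins, partners of that complex at the centromere, made up a list of 5 that all fell (median -0.41). Incenp, the scaffold of the complex, had 109.6 and 107 CPM in butyrate cultures, against 147 and 141 CPM in PBS cultures (log2 fold change -0.41, SE 0.043), and Sgo2a had 23.0 and 23.5 CPM in butyrate cultures, against 46.9 and 43.6 CPM in PBS cultures (log2 fold change -0.96, SE 0.053).

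Of 7 checkpoint and APC/C genes 6 fell, led by Cdc20, the APC/C activator that the checkpoint restrains. Cdc20 (chromosome 4, 118432901 to 118437352) had 52.0 and 55.1 CPM in butyrate cultures, against 129 and 139 CPM in PBS cultures, 2.50-fold lower (log2 fold change -1.32, SE 0.049, adjusted p = 8.86e-12). Ube2c, the ubiquitin-conjugating enzyme that works with the APC/C, had 283 and 292 CPM in butyrate cultures, against 423 and 449 CPM in PBS cultures (log2 fold change -0.60, SE 0.045, adjusted p = 1.43e-08). Both groups of libraries were clear of each other in both genes. The checkpoint kinase genes fell by less, Bub1 by a log2 fold change of -0.57 (SE 0.056) and Ttk, which encodes Mps1, by -0.43 (SE 0.055). Bub1b, which encodes the checkpoint inhibitor BubR1, had 48.6 and 47.0 CPM in butyrate cultures, against 81.4 and 76.7 CPM in PBS cultures (log2 fold change -0.72, SE 0.047, adjusted p = 2.71e-09). Bub3, which binds BubR1, had 190.3 and 196 CPM in butyrate cultures, against 182 and 181 CPM in PBS cultures and did not pass (log2 fold change 0.09, SE 0.041, adjusted p = 0.0753). In the list of 21 other genes of the APC/C, its inhibitors and separase, 8 fell and 6 rose (median -0.06), against 35.7% and 36.0% of all genes. The APC/C subunit genes Anapc11 (log2 fold change 0.85, SE 0.042) and Anapc10 (0.83, SE 0.057) rose. Fzr1, the Cdh1 activator used from late mitosis on, fell, with 47.9 and 48.5 CPM in butyrate cultures, against 84.1 and 83.3 CPM in PBS cultures (log2 fold change -0.80, SE 0.043), and Pttg1, the separase inhibitor securin, rose, with 51.4 and 47.9 CPM in butyrate cultures, against 29.8 and 29.8 CPM in PBS cultures (log2 fold change 0.74, SE 0.051).

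All 8 centromere and kinetochore genes fell. Cenpf, a large outer kinetochore protein, had 115 and 118 CPM in butyrate cultures, against 287 and 259 CPM in PBS cultures (log2 fold change -1.23, SE 0.051, adjusted p = 3.86e-11). Cenpa (chromosome 5, 30666777 to 30674830), the histone H3 variant that marks centromeres, had 128 and 128 CPM in butyrate cultures, against 252 and 263 CPM in PBS cultures, 2.01-fold lower (log2 fold change -1.01, SE 0.043, adjusted p = 3.06e-11). The butyrate libraries lay far below the PBS libraries in both genes. Knl1, the kinetochore scaffold that recruits Bub proteins, had 47.5 and 47.3 CPM in butyrate cultures, against 94.0 and 86.1 CPM in PBS cultures (log2 fold change -0.93, SE 0.049, adjusted p = 3.22e-10). Cenpe, the kinetochore kinesin, had 92.0 and 90.9 CPM in butyrate cultures, against 155 and 144 CPM in PBS cultures (log2 fold change -0.71, SE 0.045, adjusted p = 2.19e-09). The 4 subunits of the Ndc80 complex, which holds the microtubule, moved unequally, with log2 fold changes of -0.64 (SE 0.055) for Nuf2, -0.51 (SE 0.055) for Ndc80, -0.40 (SE 0.041) for Spc24 and -0.17 (SE 0.056) for Spc25. In the list of 32 inner kinetochore, Mis12, RZZ and Ska genes, 24 fell and 3 rose (median -0.32). Hjurp, the chaperone that loads CENP-A, fell together with Cenpa in the same sums, with 66.7 and 67.4 CPM in butyrate cultures, against 142 and 129.5 CPM in PBS cultures (log2 fold change -1.02, SE 0.048).

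The 6 kinesins all fell, within a narrow span. Kif4, a chromosome-arm motor, had 23.4 and 23.7 CPM in butyrate cultures, against 46.8 and 44.6 CPM in PBS cultures (log2 fold change -0.96, SE 0.051, adjusted p = 2.93e-10). Kif11, the Eg5 motor that separates the spindle poles, had 89.6 and 86.5 CPM in butyrate cultures, against 142 and 132 CPM in PBS cultures (log2 fold change -0.64, SE 0.046, adjusted p = 8.11e-09). Kif23 and Kif20a, motors of the central spindle, had log2 fold changes of -0.73 (SE 0.052) and -0.64 (SE 0.049), the microtubule depolymerase Kif2c had -0.63 (SE 0.051), and Kif20b had -0.44 (SE 0.051). No kinesin's groups overlapped.

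Spindle assembly genes had the lowest median of the 7 functional groups with 3 or more genes, -1.13 over 6 genes. The groups were not tested against each other, and the 6 genes include Pimreg (log2 fold change -1.86) and Prr11. Aspm (chromosome 1, 139454772 to 139494091), which focuses microtubules at spindle poles, had 22.7 and 22.5 CPM in butyrate cultures, against 69.2 and 63.4 CPM in PBS cultures, 2.93-fold lower (log2 fold change -1.55, SE 0.054, adjusted p = 3.44e-12). Prr11 was sparse, with 8.53 and 9.42 CPM in butyrate cultures, against 23.2 and 20.8 CPM in PBS cultures (log2 fold change -1.29, SE 0.072, adjusted p = 7.25e-10). Both genes had each PBS library at more than 2 times either butyrate library. Nusap1, a microtubule bundling protein, had 107 and 101 CPM in butyrate cultures, against 217 and 189 CPM in PBS cultures (log2 fold change -0.97, SE 0.064, adjusted p = 4.31e-07). Hmmr, a spindle protein and hyaluronan receptor, had 59.1 and 59.3 CPM in butyrate cultures, against 105 and 101 CPM in PBS cultures (log2 fold change -0.80, SE 0.043, adjusted p = 3.43e-10). Tpx2, the activator of Aurora A, fell least of the 6, with 102 and 98.8 CPM in butyrate cultures, against 149 and 145 CPM in PBS cultures (log2 fold change -0.55, SE 0.042, adjusted p = 1.64e-08). Among 29 further spindle, motor and cytokinesis genes 24 fell and 2 rose (median -0.53), among them Ckap5, a microtubule polymerase, with 50.3 and 49.6 CPM in butyrate cultures, against 96.8 and 93.5 CPM in PBS cultures (log2 fold change -0.93, SE 0.044).

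The 3 genes of the midzone and cytokinesis fell. Prc1, which cross-links midzone microtubules, had 117 and 109.8 CPM in butyrate cultures, against 163 and 149 CPM in PBS cultures (log2 fold change -0.46, SE 0.050, adjusted p = 1.39e-06), Ect2, the exchange factor that activates RhoA at the cleavage furrow, had 14.3 and 14.0 CPM in butyrate cultures, against 25.8 and 25.1 CPM in PBS cultures (log2 fold change -0.85, SE 0.055, adjusted p = 2.84e-09), and the furrow protein Anln had 12.2 and 12.3 CPM in butyrate cultures, against 26.8 and 22.4 CPM in PBS cultures (log2 fold change -1.01, SE 0.079, adjusted p = 2.96e-07). The remaining pair divided. Mki67, the chromosome surfactant Ki-67, had 419 and 395 CPM in butyrate cultures, against 549 and 501 CPM in PBS cultures (log2 fold change -0.37, SE 0.051, adjusted p = 1.37e-05), and Top2a, the topoisomerase that untangles sister chromatids, had 730.0 and 693 CPM in butyrate cultures, against 713 and 651 CPM in PBS cultures and overlapped (log2 fold change 0.06, SE 0.050, adjusted p = 0.283).

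The same test was then made inside cells that carried UMIs of both Mki67 and Top2a. To set the class at equal depth, each cell was thinned to 8000 UMIs, which left out 54 and 68 shallower cells with butyrate and 71 and 112 with PBS. Cells with both genes made up 67.7% (1697 of 2506) and 66.9% (1736 of 2596) in butyrate cultures, against 71.6% (1423 of 1988) and 69.8% (1760 of 2520) in PBS cultures. The shares were 3.42 percentage points lower with butyrate on average, and an exact two-sided permutation test gave p = 0.333, the smallest that 2 against 2 libraries allow. When cells with 5% or more mitochondrial UMIs were left out as well, the difference was -0.32 points and the mice went opposite ways (0.24 and -0.87). With the class set on unthinned UMIs it was -0.41 points. It was larger with at least 2 UMIs of each gene (-6.80 points), with cells thinned to 4000 UMIs (-6.46 points) and with a class built from mitotic genes outside the 42 (-5.23 points), and negative in both mice under each of these 3. Of the 17 genes that set this last class, 16 were themselves lower with butyrate in all kept cells (median log2 fold change -0.65). Its lower share is therefore no independent count of cells.

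Inside that class the fall was nearly as large as in all cells, but the 2 sums share most of their counts. Of the UMIs tested over all kept cells, 69035573 and 68549234 with butyrate, the sums of the class held 49106267 and 48295026. With PBS they held 39564723 and 46888775, against 51122593 and 62361146. The near agreement is therefore no independent result. Of the 40 genes that did not set the class, 36 fell, 1 rose (Birc5) and 3 did not pass (Cdk1, Aurkb and Bub3), against 34.8% of 13015 genes that fell and 35.0% that rose, 69.8% in either direction. The median log2 fold change was -0.63 over the 40 genes and -0.01 over all genes. The UMIs of the 40 genes summed to 3699 and 3771 CPM in butyrate cultures, against 5329 and 5207 CPM in PBS cultures, a ratio of 0.709. The median cell of the class had 26657 and 25954.5 UMIs with butyrate and 24670 and 23720 UMIs with PBS, and 4.05% and 4.27% mitochondrial UMIs with butyrate against 5.10% and 5.16% with PBS. The part of that difference in quality was not tested. With cells of 5% or more left out, 34 of the 40 genes were lower. The median log2 fold change was then -0.59 over the 40 genes and -0.0036 over all genes.

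Pimreg again had the largest fold. It had 19.4 and 20.8 CPM in butyrate cultures, against 71.7 and 70.8 CPM in PBS cultures in the class (log2 fold change -1.83, SE 0.053, adjusted p = 2.81e-15). Aspm had 29.4 and 29.2 CPM in butyrate cultures, against 85.4 and 78.8 CPM in PBS cultures (log2 fold change -1.49, SE 0.052, adjusted p = 3.96e-14). Cdc20 had 60.9 and 63.8 CPM in butyrate cultures, against 148 and 158 CPM in PBS cultures (log2 fold change -1.30, SE 0.046, adjusted p = 5.98e-14). These 3 genes had butyrate libraries far below both PBS libraries. Cenpf had 150.1 and 154 CPM in butyrate cultures, against 358 and 328 CPM in PBS cultures (log2 fold change -1.17, SE 0.048, adjusted p = 3.61e-13), and Cenpa had 143 and 142 CPM in butyrate cultures, against 282 and 291 CPM in PBS cultures (log2 fold change -1.01, SE 0.043, adjusted p = 5.42e-13). Birc5 had 553 and 582 CPM in butyrate cultures, against 422 and 424 CPM in PBS cultures and rose (log2 fold change 0.42, SE 0.044, adjusted p = 8.20e-08). Cdk1 did not pass, with 203 and 204 CPM in butyrate cultures, against 200.1 and 196 CPM in PBS cultures (log2 fold change 0.03, SE 0.042, adjusted p = 0.475), and Aurkb overlapped, with 104 and 108 CPM in butyrate cultures, against 108 and 104 CPM in PBS cultures (log2 fold change 0.00, SE 0.043, adjusted p = 0.974). The calls of Mad2l1 (adjusted p = 0.0464) and Spc25 (adjusted p = 0.0159) by edgeR were lost under 8 and 5 of 16 alternatives. Both were lost without butyrate replicate 1 (log2 fold changes -0.07 and -0.13), without PBS replicate 1 (-0.08 and -0.09), with DESeq2 (-0.11 and -0.15), with the 5% mitochondrial limit (-0.085 and -0.077) and in the class from mitotic genes outside the 42 (-0.08 and -0.10). Mad2l1 was also lost with thinned UMIs (-0.13), with the class set on unthinned UMIs (-0.11) and at 4000 UMIs per cell (-0.12). A class built instead from mitotic genes outside the 42, with at least 3 UMIs per cell, left 34 of the 40 genes lower, and the 25% of cells with the most Mki67 and Top2a UMIs left 36.

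**Figure D2:**
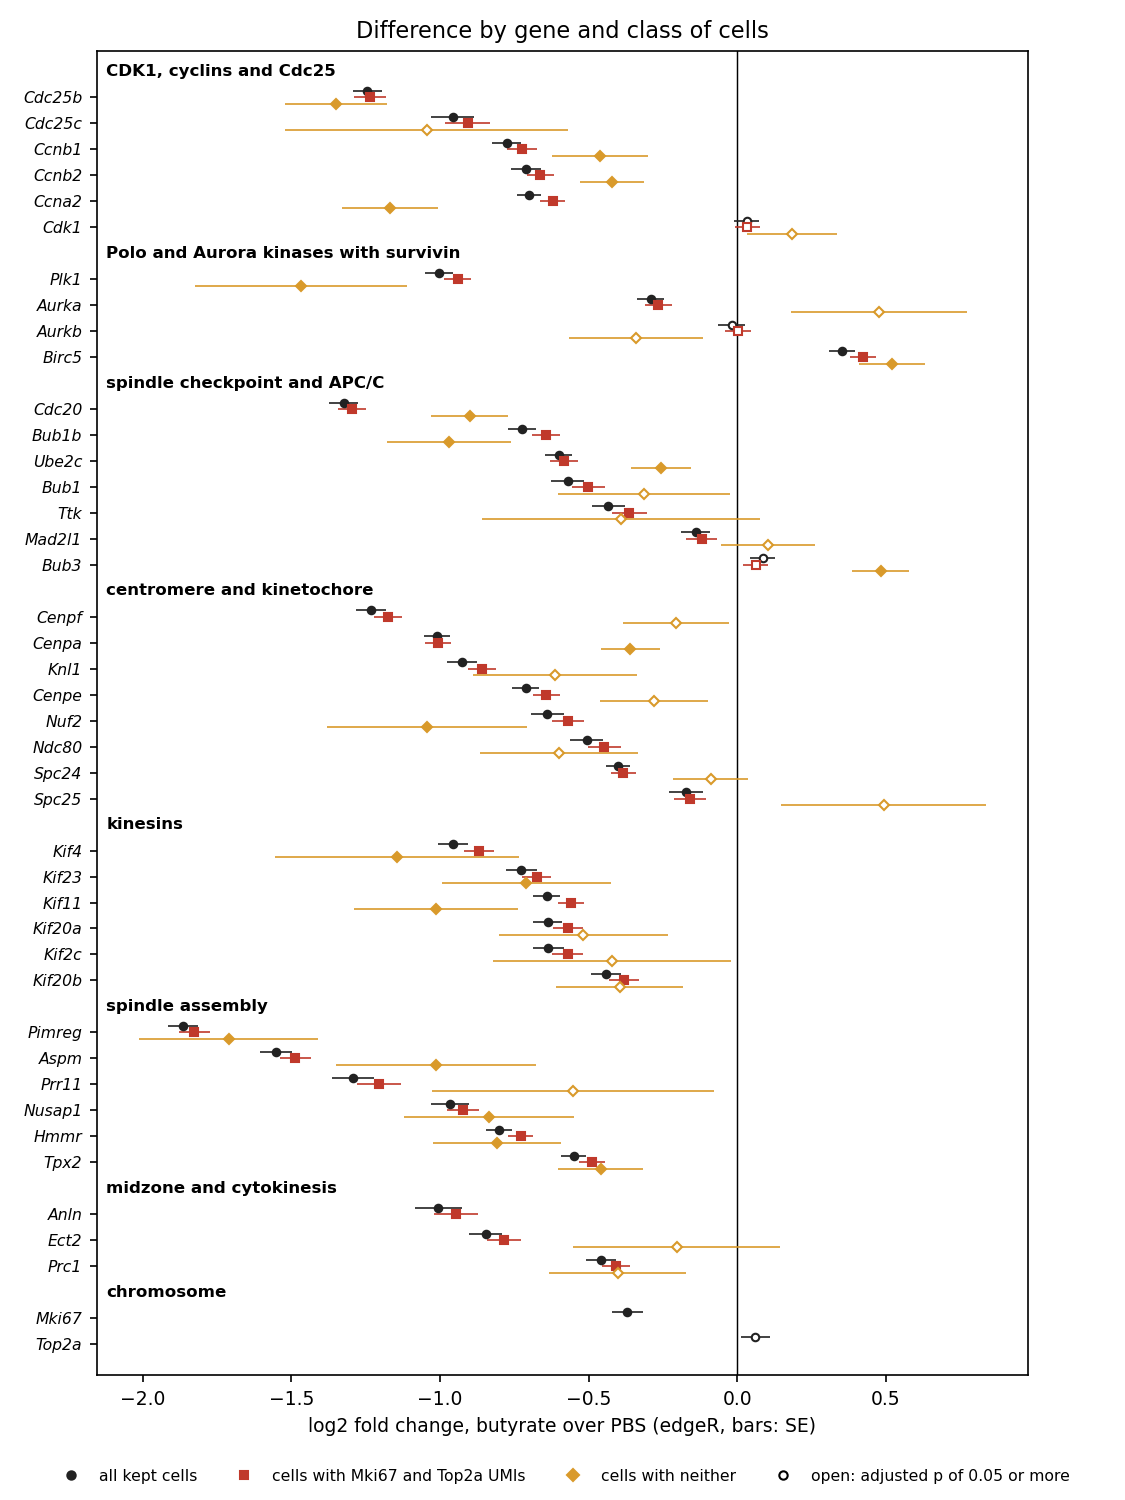
Log2 fold change of butyrate over PBS (bars: SE) for each gene in all kept cells (black circles), in cells with UMIs of both Mki67 and Top2a (red squares) and in cells with neither (orange diamonds). Open symbols have an adjusted p of 0.05 or more. Mki67 and Top2a are drawn for all kept cells alone, since they set the classes, and Anln did not pass the low-count filter in cells with neither. Black and red symbols, which rest largely on the same cells, nearly coincide, while orange ones scatter with wider errors.

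Counted per cell at 8000 UMIs, the difference ran through the whole class. This scale has no TMM step and so includes the shift of -0.20 in the median gene. The mean cell with both genes held 25.8 and 26.4 UMIs of the 40 genes in butyrate cultures, against 44.2 and 43.5 UMIs in PBS cultures, a ratio of 0.583 in the mouse of replicate 1 and 0.608 in the other. The lowest 10% of cells ended at 8 and 8 UMIs with butyrate and at 14 and 14 with PBS, the medians were 24 and 25 with butyrate and 44 and 43 with PBS, and the highest 10% began at 45 and 47 with butyrate and at 74 and 73 with PBS. The low, middle and high ends of the distribution were thus all lower. At least 20 of the 40 genes were detected in 18.7% and 21.1% of cells with butyrate, against 63.8% and 61.7% of cells with PBS.

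**Figure D3:**
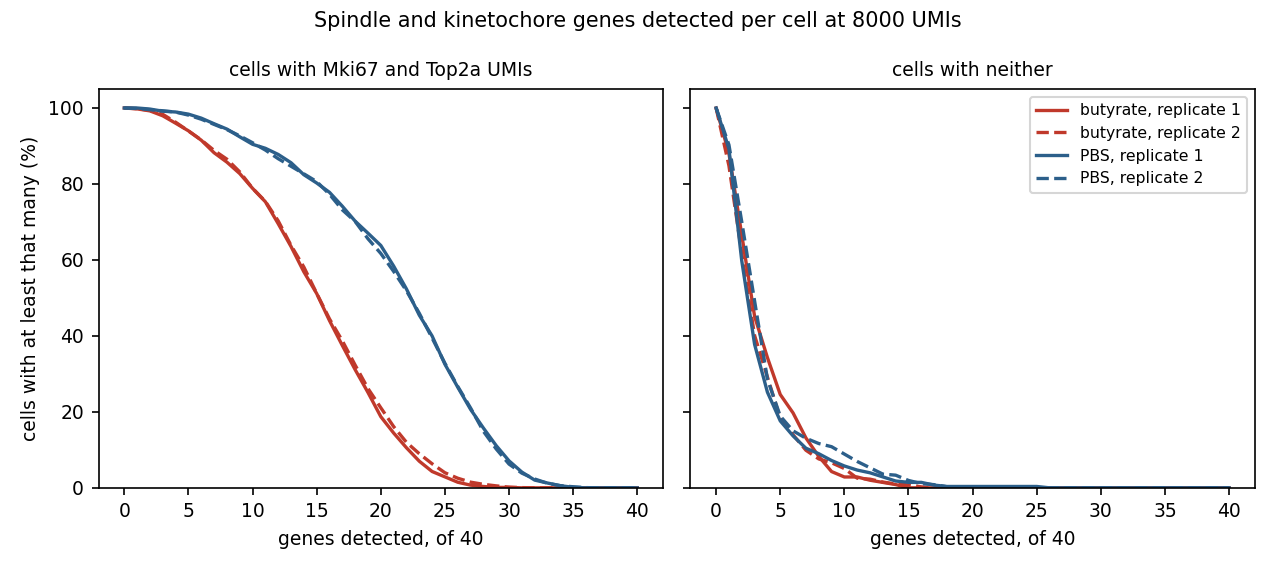
Share of cells (percent) in which at least the number of genes on the x axis, of 40, had a UMI after thinning to 8000 UMIs, for cells with both Mki67 and Top2a (left) and with neither (right). Red lines are butyrate and blue lines PBS, solid replicate 1 and dashed replicate 2. In the left panel 18.7% and 21.1% of butyrate cells and 63.8% and 61.7% of PBS cells reach 20 genes, and in the right panel the 4 lines lie close together.

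For Cdc20 and Cenpf both the share of cells with a UMI and the UMIs in those cells were lower, while for Birc5 the share was lower and the UMIs in those cells more. Cdc20 was detected in 27.3% and 29.4% of such cells in butyrate cultures, against 58.1% and 60.8% in PBS cultures. In cells with neither Mki67 nor Top2a it was detected in 7.71% and 9.39% with butyrate and 8.99% and 10.6% with PBS, and the part of free RNA in these shares was not tested. Cenpf was detected in 46.5% and 48.8% of such cells in butyrate cultures, against 74.0% and 73.9% in PBS cultures. Cenpa was detected in 47.7% and 48.3% of such cells in butyrate cultures, against 78.1% and 77.4% in PBS cultures, and Pimreg in 11.8% and 13.1% of such cells in butyrate cultures, against 42.5% and 41.9% in PBS cultures. In cells that had a Cdc20 UMI, the mean was 1.40 UMIs with butyrate and 2.08 UMIs with PBS, and for Cenpf it was 2.24 UMIs with butyrate and 3.99 UMIs with PBS. Birc5 was found in 87.7% and 89.98% of such cells in butyrate cultures, against 91.0% and 92.2% in PBS cultures, with 4.35 UMIs per positive cell with butyrate and 3.85 UMIs with PBS.

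By function, thinned UMIs per cell of the class were closest to PBS for the Polo and Aurora kinases with survivin, 5.24 and 5.45 UMIs in butyrate cultures, against 5.74 and 5.81 UMIs in PBS cultures (ratio 0.927), a sum in which Birc5 is included. With TMM scaling this group turned, with 769.5 and 802 CPM in butyrate cultures, against 706 and 700.0 CPM in PBS cultures (ratio 1.12), while the other 6 groups stayed below 1. Thinned UMIs were lowest relative to PBS for spindle assembly, 2.83 and 2.78 UMIs in butyrate cultures, against 6.42 and 6.00 UMIs in PBS cultures (ratio 0.451). Centromere and kinetochore genes followed, with 5.11 and 5.29 UMIs in butyrate cultures, against 10.9 and 10.5 UMIs in PBS cultures (ratio 0.487). The other 4 groups lay between, with ratios of 0.567 for kinesins, 0.610 for checkpoint and APC/C genes, 0.611 for CDK1, cyclins and Cdc25, and 0.613 for midzone and cytokinesis. No difference between groups was tested.

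**Figure D4:**
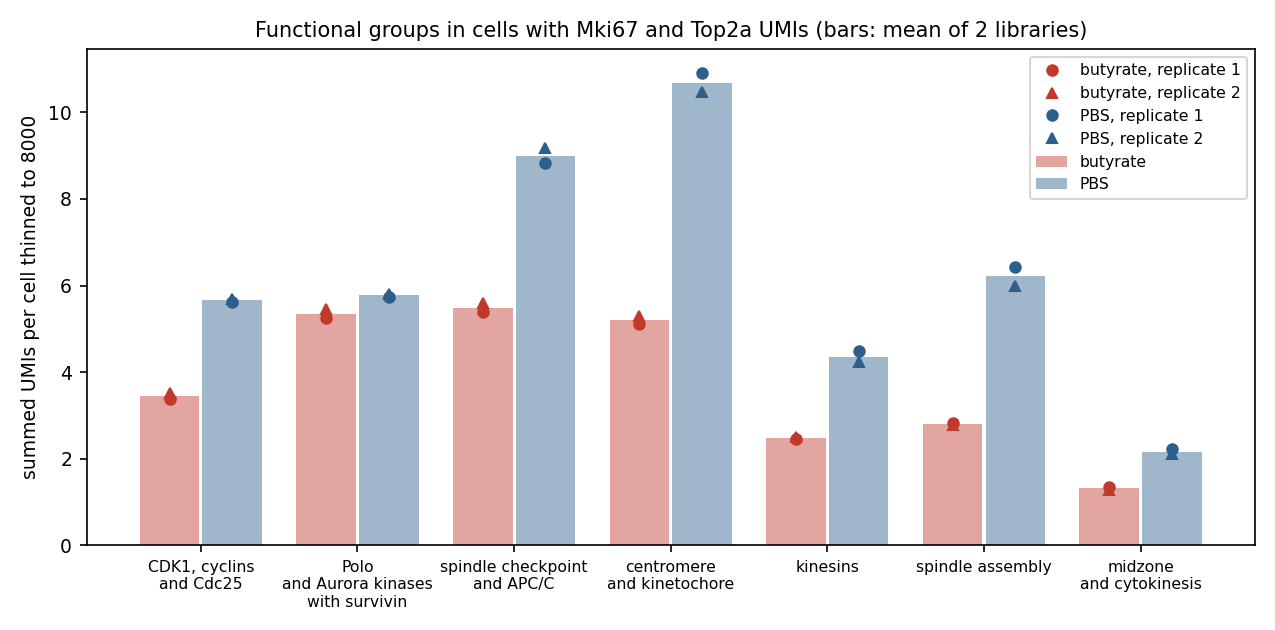
Summed UMIs per cell (y axis, cells thinned to 8000 UMIs) for 7 functional groups in cells with UMIs of both Mki67 and Top2a. Bars are means of 2 libraries, with butyrate (red) left of PBS (blue), circles replicate 1 and triangles replicate 2. Centromere and kinetochore genes held 5.11 and 5.29 UMIs in butyrate cultures, against 10.9 and 10.5 UMIs in PBS cultures.

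The fall in UMIs of the 40 genes over all thinned cells was divided into a part from the changed shares of the classes and a part from changed levels inside them, mouse by mouse. Levels inside classes made up 94.2% of it in the mouse of replicate 1 and 94.8% in the other, and class shares 5.83% and 5.17%. The class with both genes alone accounted for 88.6% and 86.4%. For single genes, 39 of the 40 had fewer thinned UMIs per cell with butyrate (Birc5 had more). Levels made up from 74.6% to 98.7% of the fall in the 39, with a median of 95.03%. Thinned UMIs have no TMM step, so the part from levels includes the downward shift of the median gene given above. Cdk1, Aurkb and Bub3 are among the 39, though they did not pass with TMM scaling. The classes are coarse, and position within the cell cycle inside a class was not tested.

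In cells with neither Mki67 nor Top2a (350 and 394 cells with butyrate, 278 and 360 with PBS) the 39 genes tested summed to 678 and 606 CPM in butyrate cultures, against 730.0 and 729 CPM in PBS cultures. There 18 of 39 fell, 2 rose (Birc5 and Bub3) and 19 did not pass, against 24.7% of 10605 genes that fell and 25.8% that rose, 50.6% in either direction. Ccna2 had 10.8 and 8.89 CPM in butyrate cultures, against 22.7 and 21.6 CPM in PBS cultures (log2 fold change -1.17, SE 0.16, adjusted p = 3.83e-07), Cdc25b had 8.89 and 7.40 CPM in butyrate cultures, against 21.2 and 20.4 CPM in PBS cultures (log2 fold change -1.35, SE 0.17, adjusted p = 6.78e-08), and Bub3 had 101 and 92.6 CPM in butyrate cultures, against 64.6 and 73.3 CPM in PBS cultures (log2 fold change 0.48, SE 0.097, adjusted p = 1.02e-04). Ccna2 and Cdc25b were lower in both butyrate libraries and Bub3 was higher in both. The count in this class rested on how the class was set. With the class set on unthinned UMIs, 2 of 26 genes tested fell. When at least 2 UMIs of each gene were asked for, 28 of 40 fell. The median cell of the class was deeper with butyrate, 20681.5 and 19033 UMIs against 13712 and 12722 UMIs with PBS. Barcodes with under 100 UMIs, which hold free RNA, had 2345 and 2435 CPM of the same 39 genes with butyrate and 4059 and 4113 CPM with PBS, without TMM scaling, and the part of free RNA and depth was not tested.

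The difference of the butyrate effect between cells with both genes and cells with neither was tested directly, with the library as a block. It passed for 6 of 40 genes, 5 of them with a more negative fold in cells with both, against 9.16% of 12621 genes in that direction and 12.8% in the other, 22.0% in either. Cenpf had log2 fold changes of -1.17 in cells with both and -0.21 in cells with neither (difference -0.91, SE 0.16, edgeR adjusted p = 3.82e-05). Cenpa had -1.01 in cells with both and -0.36 in cells with neither (difference -0.59, SE 0.089, edgeR adjusted p = 2.51e-06). Both held under all 10 alternatives run on this difference. None of these summed thinned UMIs or used the 5% mitochondrial limit, so the part of depth in the difference was not tested. Cells with UMIs of only 1 of the genes formed a mixed class: Top2a was the gene detected in 74.5% and 67.8% of them with butyrate and in 54.7% and 50.3% with PBS. In that class 25 of 40 genes fell and 7 rose, against 25.6% and 27.1% of 11114 genes (52.7% in either direction), and Cdk1 (0.76), Aurkb (0.66) and Spc25 (0.60) were among those that rose.

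Other cell cycle lists set the 42 genes in context, each counted in sums over all kept cells, where 35.7% of all genes fell and 36.0% rose. Condensin and cohesin genes mostly fell, 14 of 19 with 5 that did not pass (median -0.40), led by the cohesin subunit Stag2, with 31.6 and 29.7 CPM in butyrate cultures, against 69.5 and 63.7 CPM in PBS cultures (log2 fold change -1.12, SE 0.054). Of 16 regulators of mitotic entry and exit 11 fell and 3 rose (median -0.34), and Nek2, a centrosomal kinase, had 10.5 and 9.70 CPM in butyrate cultures, against 20.7 and 21.6 CPM in PBS cultures (log2 fold change -1.07, SE 0.063). Transcription factors of the cell cycle were divided, 10 lower and 7 higher of 23 (median -0.05). Foxm1, an activator of G2 and M phase genes, had 13.1 and 13.7 CPM in butyrate cultures, against 28.4 and 24.7 CPM in PBS cultures (log2 fold change -0.98, SE 0.069), while E2f1, an activator of S phase genes, had 32.2 and 32.5 CPM in butyrate cultures, against 23.7 and 23.4 CPM in PBS cultures (log2 fold change 0.46, SE 0.050). Tfdp1 (log2 fold change 0.54, SE 0.043) and E2f4 (0.40, SE 0.042) of this list also rose. Of 38 DNA replication genes 12 were lower and 17 higher (median 0.06), near the shares over all genes. Ccne1, the cyclin of S phase entry, had 81.0 and 80.3 CPM in butyrate cultures, against 44.9 and 45.7 CPM in PBS cultures (log2 fold change 0.83, SE 0.044). Pold1 fell, with 35.2 and 34.6 CPM in butyrate cultures, against 53.6 and 52.3 CPM in PBS cultures (log2 fold change -0.60, SE 0.047). Rrm2, a ribonucleotide reductase subunit, had 208 and 214 CPM in butyrate cultures, against 154 and 151 CPM in PBS cultures (log2 fold change 0.47, SE 0.042). Inside cells with both Mki67 and Top2a the replication list had 12 lower and 18 higher of 38 (median 0.06). Cdkn1a, the CDK inhibitor p21, was higher in the same sums, with 212 and 228 CPM in butyrate cultures, against 49.99 and 53.3 CPM in PBS cultures.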

How the data were processed

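For each of the 4 libraries the authors deposited a matrix of UMI counts over 32285 genes and 6794880 barcodes, empty droplets included. Per the submitters' processing notes, Cell Ranger 4, Seurat 4.3 and the mm10 genome were used. For the annotation release and the handling of intronic reads, nothing is stated in the labels. Gene coordinates came from GENCODE for GRCm38 and promoters from RefSeq for GRCm38.p6.

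Barcodes were kept as cells with at least 10% of the 99th percentile of UMIs of the top 3000 barcodes (limits of 6525 and 6202 UMIs with butyrate, 6600 and 6644 with PBS), at least 500 genes and under 10% mitochondrial UMIs, which removed 63 and 92 barcodes with butyrate and 217 and 295 with PBS. No doublets were removed, but an alternative left out the 2% of cells with the most UMIs. Pairs of libraries shared 1 to 6 cell barcodes. Each kept cell was thinned to 8000 UMIs with a fixed seed to set the classes by UMIs of Mki67 and Top2a, and the unthinned UMIs of each class were summed per library.

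Sums were tested with edgeR 4.0.16 (TMM, filterByExpr, quasi-likelihood F test) over all genes, with Benjamini-Hochberg adjustment and a threshold of 0.05, and SE is the absolute log2 fold change over the square root of F. The difference of effects used sums per library and class with the library as a block. DESeq2 1.42.0 was an alternative. On simulated counts, with the same dispersion for every gene, edgeR recovered 89.2% of genes changed by 1 on the log2 scale in all kept cells. The value was 91.9% in cells with both genes, 84.1% in cells with neither and 65.1% for the difference of effects. For genes changed by 0.5 it was 76.3%, 78.7%, 60.7% and 34.8%, in the same order. Smaller differences of effect could thus often be missed. Replicate numbers mark the mouse per the labels, so they pair the cultures. The 2 cultures of a mouse deviated from their group means with a correlation of 0.0594 over 13487 genes. Counting intervals and floors cover counting error only.

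The 42 genes and the other lists were chosen with earlier results of these data known. By the rule set with them, the genes described in full are the 3 with the largest and the 3 with the smallest fold change of each functional group (all of a smaller group), of each other list at most 4 by smallest p, and Cdkn1a. Alternatives were library totals as scaling, no filter on low counts, DESeq2, the replicate block, other limits and classes of cells, and leaving out each library.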

Additional observations from a re-analysis of the deposited data

Results flagged for a closer look

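In 6 of 40 genes the butyrate effect differed between cells with UMIs of both Mki67 and Top2a and cells with neither, by the edgeR test of the difference itself. Among all 12621 genes tested, 22.0% passed in either direction. The difference in log2 fold change was -0.91 for Cenpf, -0.59 for Cenpa, -0.36 for Bub3, -0.34 for Cdc20 and -0.27 for Ube2c, all more negative in cells with both, and 0.60 for Ccna2. Cenpf and Cenpa passed under all 10 alternatives, none of which summed thinned UMIs. Bub3 did not pass with the class set on unthinned UMIs (-0.27, adjusted p = 0.0889). Cdc20 did not pass without butyrate replicate 1 (-0.39), without PBS replicate 1 (-0.37), without PBS replicate 2 (-0.35), with DESeq2 (-0.38) or with 2 UMIs of each gene (-0.10). Ube2c did not pass without PBS replicate 2 (-0.14) or with DESeq2 (-0.31). Ccna2 did not pass without butyrate replicate 2 (0.36) or at 4000 UMIs per cell (0.13), and its sign turned with unthinned classes (-0.38).

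Aurkb went opposite ways in the 2 mice. Its log2 ratio of butyrate over PBS was -0.076 in the mouse of replicate 1 and 0.038 in the mouse of replicate 2 over all kept cells, and -0.049 and 0.052 in cells with both genes. This difference between the mice was not tested.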

How the results depend on the processing

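In all kept cells the members lower by edgeR numbered 35 to 41 over 11 alternatives, and in cells with both genes 34 to 39 over 16. Members higher in all kept cells numbered 3 with a 5% mitochondrial limit, and in cells with both genes 3 with the class built from mitotic genes outside the 42. Genes that did not pass changed sign: with library totals alone Cdk1 (-0.17), Bub3 (-0.11) and Top2a (-0.14) in all kept cells, and Cdk1 (-0.16), Aurkb (-0.19) and Bub3 (-0.13) in cells with both. Aurkb in all kept cells turned to 0.013 without PBS replicate 1 (range over left-out libraries -0.064 to 0.013) and 0.044 with the 5% limit, and Top2a to -0.0067 without PBS replicate 2. In cells with both genes Cdk1 turned to -0.0031 with thinned UMIs, -0.023 with 2 UMIs of each gene and -0.038 in the 25% of cells with the most Mki67 and Top2a UMIs. Aurkb there turned to -0.018 without a filter, and over left-out libraries it ran from -0.031 (without PBS replicate 2) to 0.024 (without butyrate replicate 1), below 0 also without butyrate replicate 2. It turned to -0.12 with thinned UMIs, -0.0043 without the 2% of cells with the most UMIs, -0.054 with 2 UMIs, -0.015 at 4000 UMIs per cell and -0.081 in those 25% of cells.

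In cells with neither gene, 8 of 39 members tested were lower with DESeq2 and 5 of 29 with thinned UMIs. The count was 28 of 40 with 2 UMIs of each gene and 2 of 26 with unthinned classes. At 4000 UMIs, 6 of 40 were higher. Over all 10605 genes tested, DESeq2 gave 1384 lower and 1793 higher in this class. Cenpf turned to 0.40 with thinned UMIs and 0.30 with unthinned classes, and Ccnb1 to 0.12 with thinned UMIs. For the difference between classes, members with a more negative effect in cells with both numbered 8 with library totals, 8 without a filter, 3 with DESeq2, 9 with 2 UMIs, 9 with unthinned classes and 15 at 4000 UMIs, and members with a more positive one 0 with unthinned classes and 0 at 4000 UMIs. Over all genes DESeq2 gave 569 and 504, and the more positive count was 820 with 2 UMIs and 848 at 4000 UMIs. Ccna2 turned to -0.38 with unthinned classes. The cause was not tested.

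Leaving out 1 library at a time left 35 to 37 members lower and 1 higher in all kept cells, 34 to 36 and 1 in cells with both, 13 to 17 and 2 to 3 in cells with neither, and 4 to 9 and 0 to 1 for the difference between classes. Over all genes the counts were 4310 to 4608 lower and 4367 to 4589 higher in all kept cells, 4059 to 4297 and 4140 to 4335 in cells with both, 2098 to 2478 and 2219 to 2699 in cells with neither, and 712 to 1568 and 767 to 1101 for the difference. The share of cells with both genes differed by -4.28 to -2.55 points. With the replicate block, 37 members were lower in all kept cells, 36 in cells with both and 20 in cells with neither (Knl1 and Ndc80 added), and it changed no other call of a member. The ratio of thinned UMIs was 0.628 with the 5% limit and 0.615 with the class from other mitotic genes. The percentage of the fall from levels inside classes was 101 with the 5% limit, 90.1 with 2 UMIs and 89.0 with the class from other mitotic genes. Alternatives to the thinned values per cell, and the class from other mitotic genes for shares, were added after the data were seen. A class fold in cells with neither rests on 278 to 394 cells per library, which limits its precision.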

Other observations

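DNA replication genes, described above for all kept cells, were also counted in cells with neither Mki67 nor Top2a. There 21 of 38 were higher with butyrate by edgeR and 17 did not pass (median log2 fold change 0.38), against 25.8% of all genes higher and 24.7% lower in that class. The difference of effect between cells with both genes and cells with neither was more negative in cells with both for 12 of the 38 and did not pass for 26, against 9.16% of all genes more negative and 12.8% more positive. In the same cells with neither, 8 of 19 condensin and cohesin genes were lower and 1 higher (median -0.19). The median cell of this class was deeper with butyrate, as given above, and the part of depth was not tested.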
